A study of Homo sapiens with 6 samples.

Results

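Deubiquitinases are proteases that remove ubiquitin from proteins, and 61 genes of their main families were measured among 15243 genes in a ribosome footprint comparison of NCI-H1299 cells, an established p53-null line from a human lung carcinoma. The members were every gene of the authors' deposited table whose symbol starts with USP or OTUD and a digit, or is OTUB1, OTUB2, UCHL1 or UCHL3. They comprised 50 genes with USP symbols, 7 OTUD genes, both OTUB genes and both UCHL genes. The symbol rule also took in USP6NL, a GTPase-activating protein gene named for its likeness to USP6 and not a deubiquitinase, and USP39, a splicing factor of the family that lacks the catalytic residues. USP50 was likewise listed as a member without deubiquitinase activity. No USP17-like copy, and neither OTUD6A, USP26 nor USP29, is listed in the table.

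The series compared 3 shALDH18A1 samples, in which a short hairpin RNA is aimed at the P5CS gene ALDH18A1, with 3 shControl samples, all from the same line, and its title names P5CS, an enzyme of proline synthesis, as an RNA-binding protein that regulates translation. Ribo-seq, the assay used, reads the pieces of mRNA covered by ribosomes. The values came from a finished comparison that holds, for each gene, a mean normalized count, a log2 fold change, the standard error (SE) of that change, a p and an adjusted p. No values per sample were used here. Library depth is therefore unknown, no spread between samples can be shown, and precision rests on the deposited SE. Whether the 3 samples of a group came from separate infections or cultures is not given in the sources used here, so the p-values may measure technical spread. Nor do the sources state which group is the reference, or whether RNA abundance was divided out of the fold. Higher and lower therefore give the sign in the authors' deposited table and not a direction between shALDH18A1 and shControl, and the log base was read as 2 from how the columns are laid out.

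A gene was called when its adjusted p in the authors' deposited table was under 0.05, and ± gives the deposited SE. ALDH18A1 itself was not called, at −0.19 ± 0.12 (log2) in the authors' deposited table (adjusted p = 0.173, mean normalized count 846). The targeted gene therefore does not settle the direction, and its deposited values do not show the knockdown. The epithelial keratin genes KRT8 and KRT18 were at mean normalized counts of 6396 and 6869 in the authors' deposited table, and the mesenchymal gene VIM had 22046. The other epithelial markers were low or missing, with EPCAM at 11.4 and CDH1 at 1.95 in the authors' deposited table and KRT19 not listed. Of 4 lung epithelial markers, only NKX2-1 was listed, at 3.24 in the authors' deposited table, so lineage markers of lung epithelium were scarce or not listed in these cells labelled as lung adenocarcinoma.

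Ubiquitin is attached to proteins by a cascade of E1, E2 and E3 enzymes, and deubiquitinases reverse that step, edit ubiquitin chains and release free ubiquitin from its precursors. The ubiquitin-specific proteases (USP) form the largest family, the OTU enzymes often prefer particular chain types, and the small UCH enzymes act on short ubiquitin extensions. Many members work in fixed places: on the proteasome, on histones, on endosomes, at the mitochondrial surface or on stalled ribosomes.

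The deubiquitinase genes lay to the lower side of the table. Of the 61 members, 26 were called lower, 12 higher and 23 were not called in the authors' deposited table. That is 42.6% of the members called lower, against 29.4% of all genes tested, and 19.7% called higher, against 28.9% of all genes. In either direction 62.3% of the members were called, against 58.4% of all genes. Their median log2 fold change was −0.31, against 0.02 over all genes, and 65.6% of them were below 0, against 49.1% of all genes. The share called was thus close to that of all genes, while the split was uneven. Among the 25 members whose annotated span overlaps no other gene the split was narrower. There 10 were lower (40.0%) and 8 higher (32.0%), with a median of −0.14. No share was taken over all genes without an overlap. Of the 36 members with an overlap, only 10 overlap a measured gene, and an effect of overlap on the calls was not tested. No test was made of the members as a group, because they were chosen with results of these data known. In a bulk sample, a change in some cells and a change in all of them cannot be told apart.

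The uneven split was found among the more abundant members. Of the 39 members at or above the median mean normalized count of all genes (150.2), 22 were called lower and 7 higher in the authors' deposited table. That is 56.4% lower and 17.9% higher, against 40.9% lower and 30.9% higher among all 7622 genes at or above it. In either direction 74.4% of these members were called, against 71.8% of those genes. Of the 22 members below the median, 4 were lower and 5 higher in the authors' deposited table, and 18.2% lower is next to the 18.0% of all genes below it. The median SE was 0.116 among the more abundant members and 0.260 among the others, so smaller differences could be called in the abundant ones. Spearman's rho between mean normalized count and log2 fold change was −0.23 across the 61 members and −0.12 across all genes, given as descriptions because genes share libraries. Shares for the gene lists that follow stand beside all genes, not genes of like abundance, unless stated.

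**Figure D1:**
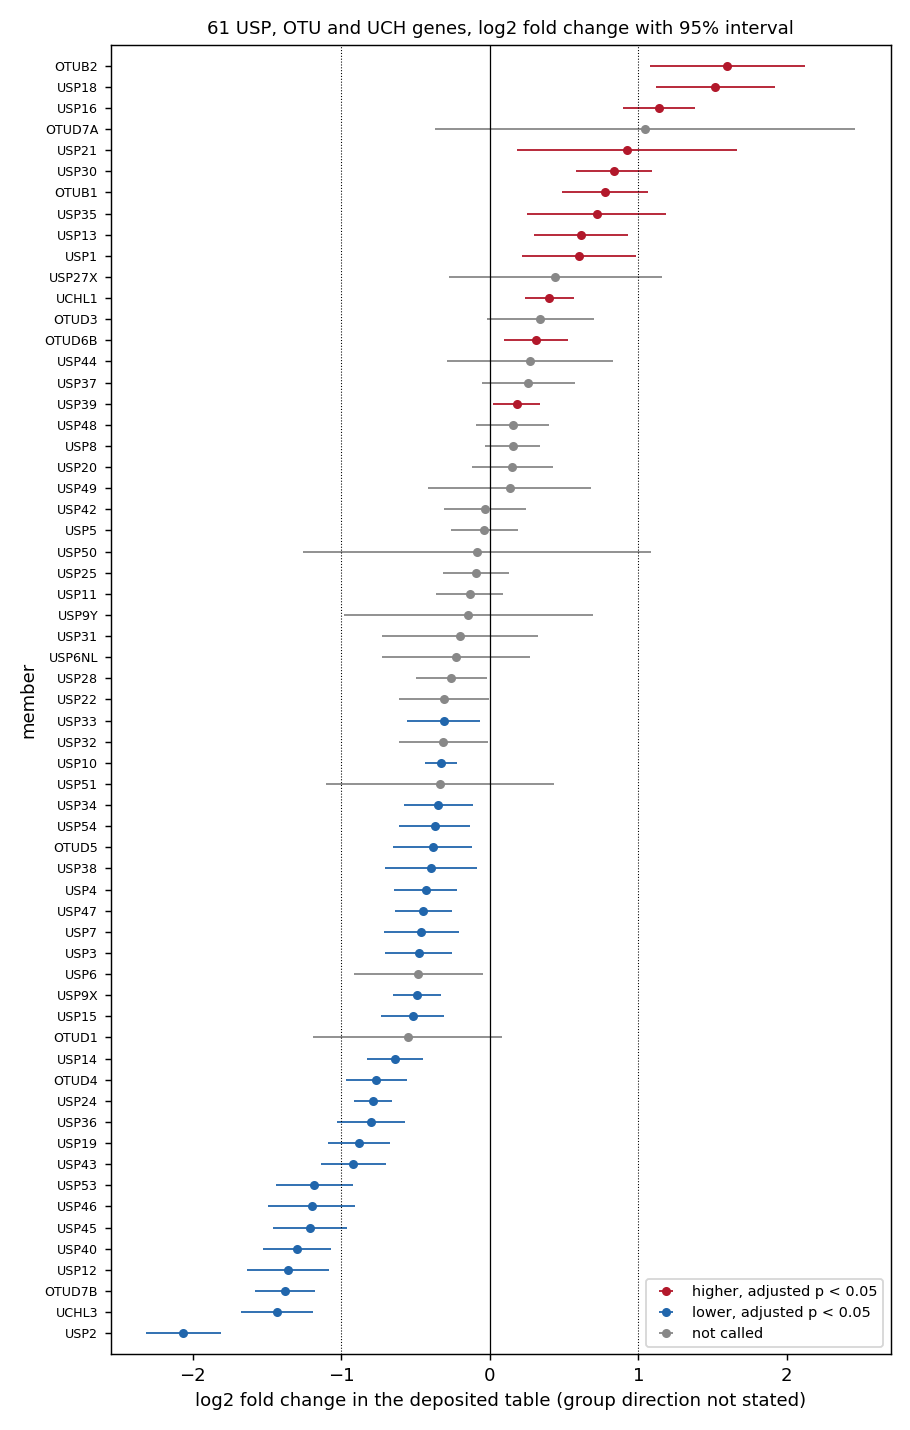
Log2 fold change of each of the 61 members in the authors' deposited table, sorted, with horizontal bars for the 95% interval from the deposited SE, dotted lines at −1 and 1, and colours for calls at an adjusted p under 0.05 (red higher, blue lower, grey not called). The 26 members called lower reach to USP2 at −2.06 and the 12 called higher reach to OTUB2 at 1.60.

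The authors also marked genes by a p under 0.05 before adjustment and a log2 fold change past 1 either way. By that rule 8 members were marked down (USP2, UCHL3, OTUD7B, USP12, USP40, USP45, USP46 and USP53) and 3 were marked up (OTUB2, USP18 and USP16) in the authors' deposited table. The members were thus 13.1% down and 4.92% up, against 9.24% down and 15.2% up over all genes, so that down marks outnumbered up marks among the members and up marks outnumbered down marks in the whole table.

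USP2, which removes ubiquitin from cyclin D1, had the lowest value of the members, at −2.06 ± 0.13 in the authors' deposited table (95% interval −2.31 to −1.81, adjusted p = 3.98e-57). That is a 4.18-fold difference, and 348 genes of the whole table lay lower. Its mean normalized count was 217.0 in the authors' deposited table, and its gene on chromosome 11 (119355215 to 119381690, GRCh38) overlaps no other annotated gene. OTUD7B, an OTU enzyme that acts on the noncanonical NF-kB pathway, stood at −1.38 ± 0.10 in the authors' deposited table (adjusted p = 2.14e-39) and lies on chromosome 1 (149937812 to 150067653). USP40 was at −1.30 ± 0.12 and USP53, a tight junction protein gene, at −1.18 ± 0.13 in the authors' deposited table.

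At the other end, OTUB2 was 3.03-fold higher, at 1.60 ± 0.27 in the authors' deposited table (95% interval 1.08 to 2.12, adjusted p = 8.55e-09), with a mean normalized count of 54.3. Its span on chromosome 14 (94026340 to 94048930) shares 644 bases with that of DDX24. USP18, an interferon-induced protease that removes the ubiquitin-like protein ISG15, was at 1.52 ± 0.20 in the authors' deposited table (adjusted p = 6.78e-13). USP18 on chromosome 22 has a related pseudogene, USP41P, so reads of the pair may have been split or dropped. USP16, a histone H2A deubiquitinase, was at 1.14 ± 0.12 in the authors' deposited table (adjusted p = 2.57e-19), and its abundance of 383 was the highest of the 3 marked up.

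**Figure D2:**
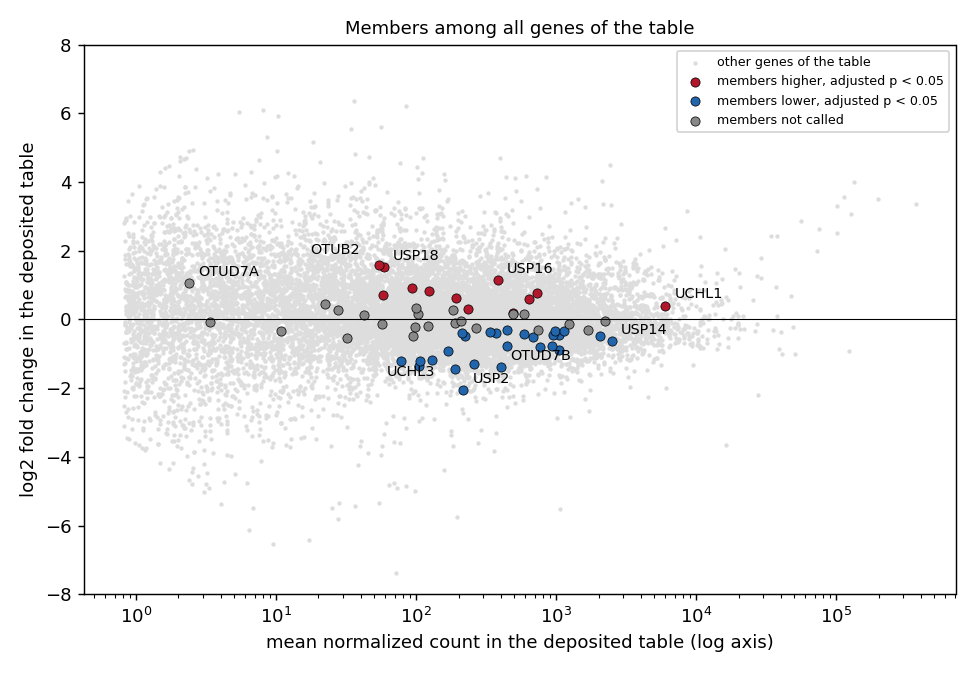
Mean normalized count (log axis) against log2 fold change in the authors' deposited table, with members coloured by call over all other genes in grey. By adjusted p, the members called higher reach up to UCHL1 at a mean normalized count of 6012 and those called lower up to USP14 at 2483. The members marked up are at 54.3 (OTUB2), 58.8 (USP18) and 383 (USP16), and OTUD7B, marked down, is at 402.

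Because the comparison concerns translation, the first transcribed bases of the marked members were read from the RefSeq promoter table (GRCh38.p14), which held a start for 48 of the 61 members, 65 starts in all. Terminal oligopyrimidine (TOP) mRNAs, whose translation follows growth signals, begin with a C and a run of pyrimidines. The search asked for a C at the annotated start followed by 4 bases that are each C or T, on the transcribed strand only. It matched 2 of the 65 starts of members (3.08%), in USP46 and USP3, and 4.95% of the 17350 annotated starts of genes in the table. RefSeq starts are not start sites measured in these cells, and a match describes the letters only. The starts held for USP2 (119364208) and OTUD7B (150010726) lie inside the gene spans given above and not at their 5′ ends. The lines show 20 bases before and 10 after a start, 5′ to 3′ on the gene's strand, with the first 5 transcribed bases in capitals, for those matches and for the 4 lowest and 2 highest members with an annotated start.
USP46, first annotated start (chr4:52659292-52659321, minus strand): cctccccgcgccgccgcctcCTCCTcccgg
USP46, downstream start (chr4:52656530-52656559, minus strand): agtggagatcatgccatttcAGACCtggtg
USP3 (chr15:63504573-63504602, plus strand): ccggcgtccggaagcccgtgCTTTCtttga
USP12 (chr13:27171802-27171831, minus strand): ggctggggcccgaggccgggAGTGCctgag
USP2 (chr11:119364199-119364228, minus strand): gaggcgccggcggggccgccAGTCGgccgg
UCHL3, upstream start (chr13:75549482-75549511, plus strand): cgcatgcgtagaacgcgagcGCTCGgcaag
OTUD7B (chr1:150010717-150010746, minus strand): cggccggacagcagaaagccACCGAtcctg
USP16 (chr21:29024648-29024677, plus strand): gttattgctttccaggggtcACTCTggctt
OTUB2 (chr14:94026320-94026349, plus strand): ccgcctgagacgtcaatcgcAGGGCgtgtg
Of the marked members with a start in the promoter table, only USP46 held a pyrimidine start, at 1 of its 2 annotated starts. The downstream start of USP46 begins with A, as does that of USP12. Whether the first bases bear on the calls was not tested. The median GC content of the 300-base windows, averaged over each member's starts, was 68.3% in the 23 lower members with a start. It was 63.8% in the 10 higher ones and 70.0% in the 15 not called. Over all single starts of genes in the table, where a gene may count more than once, the median was 64.3%. The highest of these medians was that of the members not called, and a link of GC content to the calls was not tested.

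Members that recycle ubiquitin or sit on the proteasome went both ways, with 2 higher, 2 lower and 1 not called of 5 (40.0% each way, against 28.9% higher and 29.4% lower of all genes). UCHL1, a ubiquitin hydrolase abundant in neurons, was the most abundant member and was higher, with 0.40 ± 0.08 on the log2 scale at a mean normalized count of 6012, by the authors' deposited table (adjusted p = 5.40e-06). Its paralog UCHL3, which also processes the ubiquitin-like protein NEDD8, was lower, at −1.44 ± 0.12 in the authors' deposited table (adjusted p = 6.40e-30, mean normalized count 189.3). The 2 UCH genes thus lay 1.84 apart on the log2 scale. USP14, which trims chains on the proteasome and shares 110 bases of its span with THOC1, was lower at −0.64 ± 0.10 in the authors' deposited table. USP5, which takes apart unanchored ubiquitin chains, was not called at −0.04 ± 0.11 and its paralog USP13 was higher, with 0.61 ± 0.16 in the authors' deposited table. The interval of USP5 ran from −0.26 to 0.19, which allows only small differences either way.

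Of 10 histone and chromatin members, 2 were higher, 2 lower and 6 not called (median 0.05). That is 40.0% called in either direction, split evenly, against 58.4% of all genes. USP16 and USP21, both of which act on histone H2A, were higher, the authors' deposited table giving USP21 0.92 ± 0.38 with a wide interval of 0.18 to 1.66. USP3, another H2A enzyme, was lower at −0.48 ± 0.11, and USP7, which stabilises MDM2, at −0.46 ± 0.13 in the authors' deposited table. USP22, the deubiquitinase of the SAGA coactivator complex, was not called, with −0.31 ± 0.16 in the authors' deposited table (adjusted p = 0.0781). USP27X and USP51, which share SAGA subunits with USP22, were not called either, at mean normalized counts of only 22.3 and 10.8 in the authors' deposited table. USP42, USP44 and USP49 were not called, with values from −0.03 to 0.27 in the authors' deposited table.

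Among 9 DNA damage and replication members, 1 was higher, 4 lower and 4 not called (median −0.26). The share called, 55.6%, was close to the 58.4% of all genes, with 11.1% higher and 44.4% lower against 28.9% and 29.4%. Of these 9 members, 8 were at or above the median mean normalized count of all genes. Among all genes at or above it, 71.8% were called, 30.9% higher and 40.9% lower, so 44.4% lower was near that share. USP45, which acts on the repair nuclease subunit ERCC1, was at −1.21 ± 0.13 in the authors' deposited table (adjusted p = 2.17e-20), on chromosome 6 (99432325 to 99517846). USP24 was at −0.79 ± 0.07 and USP47, which acts on DNA polymerase beta, at −0.45 ± 0.10 in the authors' deposited table. USP7, counted in the histone and chromatin list too, was the remaining lower member, at −0.46 ± 0.13 in the authors' deposited table. USP1, which removes ubiquitin from PCNA and the Fanconi proteins FANCD2 and FANCI, was the only one of the list called higher, at 0.60 ± 0.20 in the authors' deposited table (adjusted p = 0.00470). USP28, a stabiliser of MYC, stood just outside the threshold at −0.26 ± 0.12 in the authors' deposited table (adjusted p = 0.0559). USP11, USP37 and USP48 were not called, with values from −0.14 to 0.26 in the authors' deposited table.

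Members of membranes and endosomes numbered 1 higher, 2 lower and 3 not called of 6, and their 33.3% lower was near the 29.4% of all genes (16.7% higher, against 28.9%). USP30, anchored in the outer mitochondrial membrane where it opposes the clearance of damaged mitochondria, was higher, with 0.84 ± 0.13 in the authors' deposited table (adjusted p = 5.63e-10). USP19, anchored in the endoplasmic reticulum, was lower at −0.88 ± 0.11 in the authors' deposited table (adjusted p = 6.25e-16, mean normalized count 1052). USP8, which serves endosomal sorting, was not called in the authors' deposited table (0.16 ± 0.09), and its span shares 21397 bases with that of USP50. USP33 was lower at −0.31 ± 0.13 and its paralog USP20 was not called, with 0.15 ± 0.14 in the authors' deposited table. USP32 was not called (adjusted p = 0.0678 in the authors' deposited table), and related sequences (USP6 and the USP32 pseudogenes) leave its reads open to splitting.

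The 13 signalling members held the largest differences of both signs, with 7 lower, 3 higher and 3 not called (median −0.40). That is 53.8% lower and 23.1% higher, against 29.4% and 28.9% of all genes. Of the 13, 9 were at or above the median mean normalized count, where 40.9% of all genes were lower and 30.9% higher. USP2 and OTUD7B were the lowest and OTUB2 and USP18 the highest. USP4 (−0.43 ± 0.11) and USP15 (−0.52 ± 0.11), paralogs that act on TGF-beta receptor signalling, were lower by the authors' deposited table, and their relative USP11 was not called at −0.14 ± 0.11. USP9X, which stabilises MCL1, was lower, and the authors' deposited table gave it −0.49 ± 0.08 at a mean normalized count of 2065. USP9Y, its close copy on chromosome Y, was not called in the authors' deposited table (−0.14 ± 0.43), and reads shared by the copies leave both uncertain. OTUD5 (−0.38 ± 0.14) and USP38 (−0.40 ± 0.16), regulators of innate immune signalling, were lower by smaller amounts in the authors' deposited table. OTUB1, which blocks the E2 enzyme UBE2N without needing its catalytic site, was higher, with 0.78 ± 0.15 in the authors' deposited table (adjusted p = 6.40e-07, mean normalized count 729). OTUD1 (−0.55 ± 0.32), USP25 (−0.09 ± 0.11) and USP31 (−0.20 ± 0.27) were not called in the authors' deposited table.

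Of 7 members tied to ribosomes, the nucleolus or RNA, 3 were higher, 3 lower and 1 not called (median 0.18). That is 85.7% called in either direction, against 58.4% of all genes, and 42.9% each way, against 28.9% higher and 29.4% lower. Of the 7, 5 were at or above the median mean normalized count, where 71.8% of all genes were called. USP10, which rescues small ribosomal subunits after stalling, was lower at −0.33 ± 0.06 in the authors' deposited table (adjusted p = 1.08e-08), and its SE was the smallest of any member. USP36, the nucleolar deubiquitinase, was at −0.80 ± 0.12, and OTUD4, a scaffold in alkylation repair that also binds RNA, was at −0.76 ± 0.10 in the authors' deposited table. USP16 and USP21 are in this list too, for their action on the small ribosomal subunit. USP39 was higher by 0.18 ± 0.08 in the authors' deposited table (adjusted p = 0.0422), and 6813 bases of its span overlap C2orf68. OTUD3 was not called, with 0.34 ± 0.18 in the authors' deposited table.

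**Figure D3:**
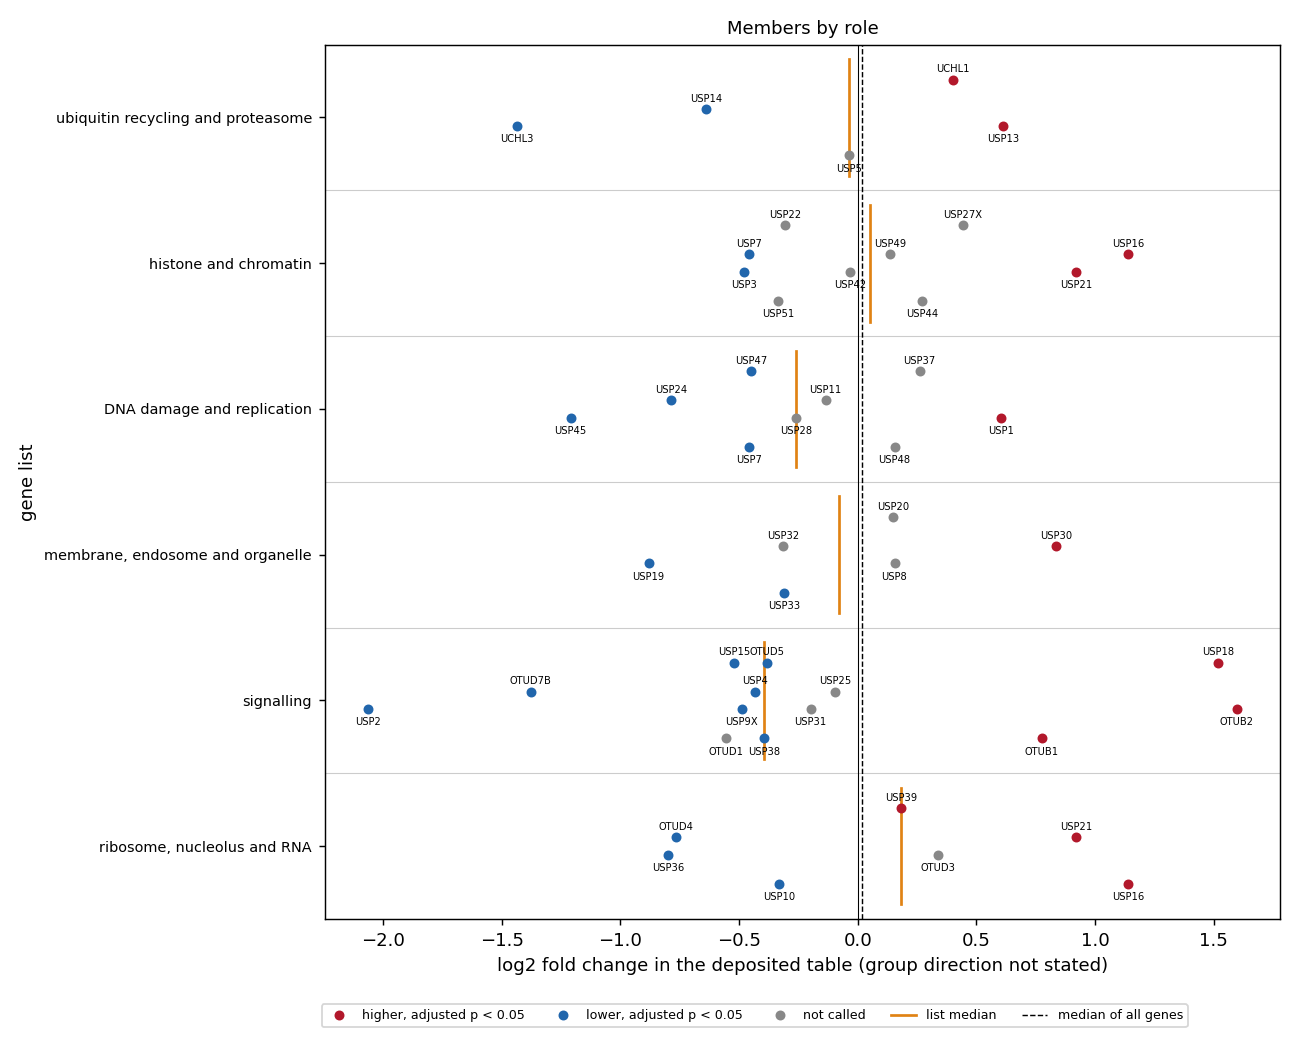
Members of 6 role lists by log2 fold change in the authors' deposited table, coloured by call (red higher, blue lower, grey not called), with an orange bar at each list's median and a dashed line at the median of all genes; heights within a list only separate labels. The signalling list spans from USP2 at −2.06 to OTUB2 at 1.60.

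Other called members lay outside these lists, a remainder that was not set beside all genes. USP12, USP40, USP43, USP46, USP53, USP34, which acts on axin in Wnt signalling, and USP54 were lower, and USP35 and OTUD6B were higher. USP43 had −0.92 ± 0.11 in the authors' deposited table and overlaps CFAP52 by 295 bases. USP34 (−0.35 ± 0.12) and USP54 (−0.37 ± 0.12) were nearer to 0 in the authors' deposited table. USP35 was at 0.72 ± 0.24 in the authors' deposited table, but 21927 bases of its span lie within that of GAB2. OTUD6B was at 0.31 ± 0.11 in the authors' deposited table (adjusted p = 0.00949). Of the 23 members not called, 18 had 95% intervals that lay between −1 and 1 on the log2 scale, so that a difference beyond 2-fold was outside them. The widest intervals belonged to OTUD7A (−0.37 to 2.46) and USP50 (−1.26 to 1.09), with mean normalized counts of 2.39 and 3.36 in the authors' deposited table. USP6NL, the member that is not a deubiquitinase gene, had −0.23 ± 0.25 in the authors' deposited table and was not called. USP6 stood just outside the threshold at −0.48 ± 0.22 in the authors' deposited table (adjusted p = 0.0529).

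Close paralogs did not always share a sign. Of 17 paralog groups with more than 1 gene measured, 3 had all genes called lower, 1 had all called higher, 3 had none called, 7 had some called in 1 direction and 3 were called in both directions. These counts stand beside 42.6% of all members called lower and 19.7% higher, and likeness within groups was not tested. Some groups hold sparse genes, such as OTUD7A at a mean normalized count of 2.39. USP12 (−1.36 ± 0.14) and USP46 (−1.20 ± 0.15), near relatives that share their activators, differed by 0.16 in the authors' deposited table. USP53 and USP54 were both lower, as were USP40 and USP47. In contrast USP16 and USP45, a related pair, lay 2.35 log2 units apart in the authors' deposited table, USP16 higher and USP45 lower. USP35 and USP38 lay 1.11 apart and also differed in sign. OTUB1 and OTUB2 were both higher.

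WDR48 is the scaffold that activates USP1, USP12 and USP46, and WDR20 further activates USP12 and USP46. WDR48 was lower at −1.46 ± 0.10 in the authors' deposited table (adjusted p = 1.33e-48, mean normalized count 370), and WDR20 at −0.32 ± 0.10. Of the 3 enzymes, USP12 and USP46 were lower and USP1 was higher. Among the substrates of USP1, FANCI (−0.79 ± 0.13) and FANCD2 (−0.29 ± 0.11) were lower and PCNA was not called (−0.07 ± 0.11) in the authors' deposited table. Over the 12 listed partners and activators, 6 were lower, 2 higher and 4 not called (median −0.28). In either direction 66.7% were called, against 58.4% of all genes, and 16.7% were higher, against 28.9%. The 6 of 12 lower stand beside 29.4% of all genes. Of the 12, 10 were at or above the median mean normalized count of all genes. Among all genes at or above it, 71.8% were called, 30.9% higher and 40.9% lower. Besides WDR48, HGS, which sorts ubiquitinated cargo on endosomes beside USP8, was lower at −1.08 ± 0.11 in the authors' deposited table. The USP10 partner G3BP1 was lower at −0.81 ± 0.07 and its paralog G3BP2 higher at 0.40 ± 0.07 in the authors' deposited table.

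The listed E2 enzymes that OTUB1 binds were lower or not called, and other E2 enzymes were not examined here. Whether the values of members relate to those of their substrates or bound E2 enzymes was not tested. UBE2N was at −1.28 ± 0.14 and UBE2D3 at −0.75 ± 0.11 in the authors' deposited table, and UBE2D2 was not called at 0.05 ± 0.15. Over the 13 listed substrates and bound E2 enzymes, 5 were lower, 3 higher and 5 not called (median 0.05), and the 61.5% called in either direction was close to the 58.4% of all genes. EGFR, which USP8 spares from lysosomal breakdown, was the highest at 2.21 ± 0.13 in the authors' deposited table (adjusted p = 1.51e-63). The USP9X substrate MCL1 was lower at −0.38 ± 0.05 in the authors' deposited table. MYC, the substrate of USP28 and USP36, was higher at 0.62 ± 0.11, and the USP7 substrate MDM2 was not called, with 0.10 ± 0.13 in the authors' deposited table.

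Deubiquitinases that the symbol rule leaves out were set beside the members. Of 18 other cysteine deubiquitinases, 11 were lower, 2 higher and 5 not called (median −0.49), which is 61.1% lower against 29.4% of all genes. CYLD, a tumour suppressor that removes ubiquitin chains in NF-kB signalling, was at −2.06 ± 0.10 in the authors' deposited table (adjusted p = 1.39e-86), close to USP2. TNFAIP3, an OTU enzyme that dampens NF-kB signalling, was at −2.19 ± 0.18 in the authors' deposited table (adjusted p = 3.23e-32). ZRANB1 was at −0.80 ± 0.10, and USPL1, a SUMO protease with a USP-like fold, was higher, with 0.85 ± 0.13 in the authors' deposited table. The 7 metalloprotease deubiquitinases went both ways, with 3 higher, 2 lower and 2 not called (median 0.19), which is 42.9% higher and 28.6% lower, against 28.9% and 29.4% of all genes. Of these, PSMD14 of the proteasome lid (−0.38 ± 0.13) and COPS5 of the signalosome (−0.23 ± 0.07) were lower, and STAMBP (0.50 ± 0.11), STAMBPL1 (0.58 ± 0.23) and MYSM1 (0.80 ± 0.20) were higher in the authors' deposited table. UCHL5, the third deubiquitinase of the proteasome beside USP14 and PSMD14, was not called, with 0.06 ± 0.12 in the authors' deposited table.

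**Figure D4:**
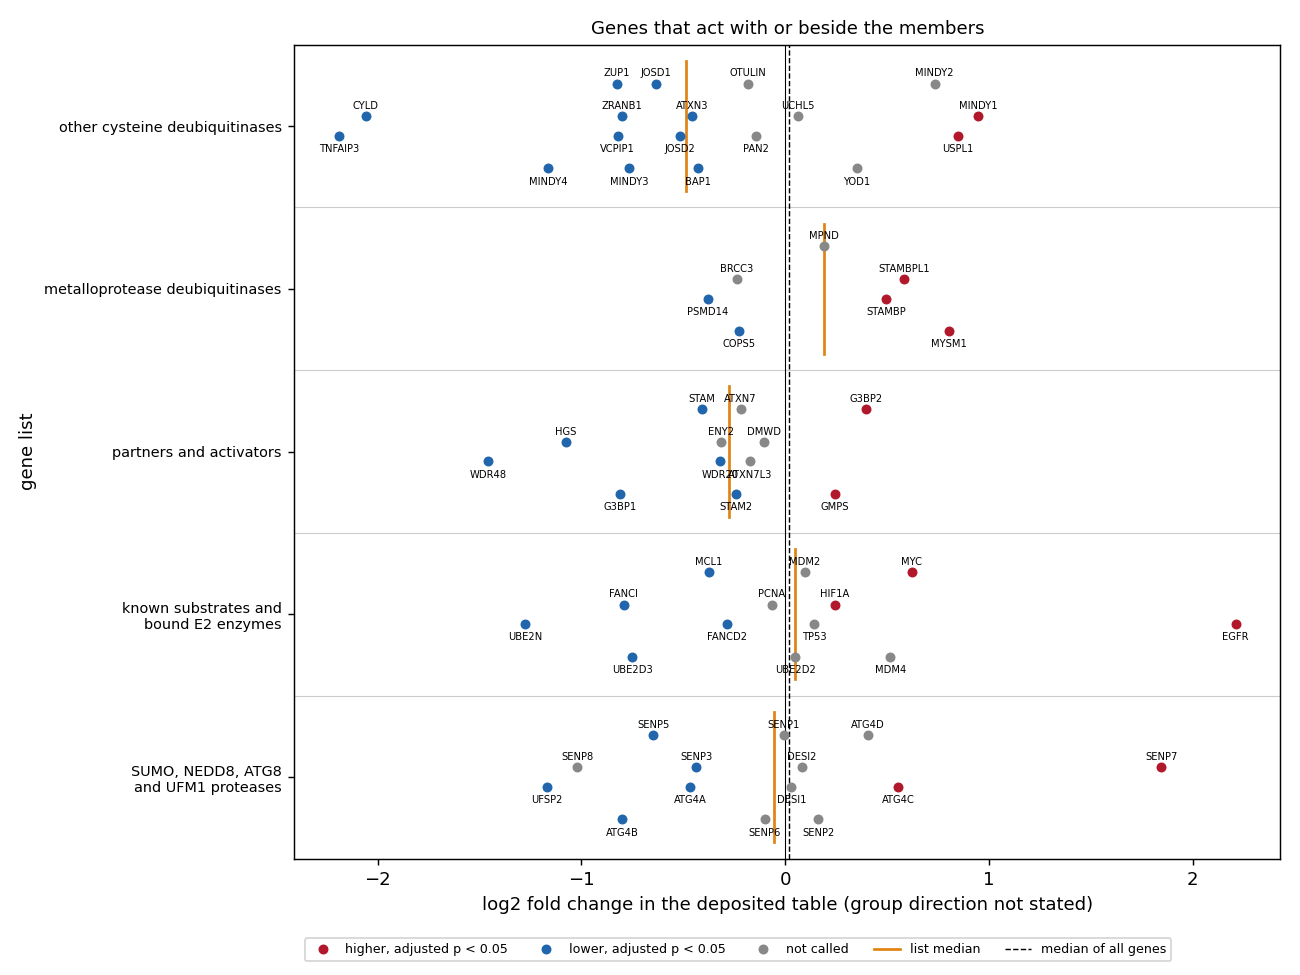
Genes of 5 related lists by log2 fold change in the authors' deposited table, drawn as in the plot of members by role. Among the other cysteine deubiquitinases 11 of 18 are lower, with TNFAIP3 at −2.19 and CYLD at −2.06, and the substrate EGFR stands at 2.21.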

How the data were processed

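The only file was a table of the authors' comparison, with 15244 entries, no column of values per sample (0 left out) and 1 symbol entered more than once, kept with its smallest p, leaving 15243 genes. The submitters' processing notes name hg38, STAR 2.7.10a, fastp 0.23.2 and featureCounts; settings, annotation, use of strand, and the tool and design of the comparison are not stated there or in the labels. Per the file headers, the deposited mean is a normalized signal (a mean normalized count), and the deposited log2 fold change has an SE on its scale. The deposited statistic is a score equal to fold change over SE. The deposited p-values equal its two-sided normal p, and the adjusted p-values follow Benjamini-Hochberg (largest difference 7.42e-06).

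The planned edgeR test was not possible without counts, so calls use the deposited adjusted p. Intervals of 95% use the normal quantile. Named genes are any member, ALDH18A1, markers of the listed cell types, and up to 4 genes of each related list with the smallest p, or all called where at most 5 were; other related genes named (UCHL5, PCNA, FANCI, FANCD2, MDM2, MYC, UBE2D2, WDR20) were chosen after their values were seen. Besides the related lists described, 1 more was planned and is not reported here. The members and lists were chosen with earlier results of these data known. All 61 members matched RefSeq genes of GRCh38.p14 by Entrez ID. Adjustment steps were tested on simulated data. Scripts ran under Python 3.11.15 (pandas 2.3.3, scipy 1.17.1, numpy 2.4.6; figures with matplotlib 3.10.9). Alternatives were other thresholds, adjustments, fold minimums, centring, abundance and member sets.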

Additional observations from a re-analysis of the deposited data

How the results depend on the processing

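The alternatives could change which members are called. Apart from centring, none of them altered a fold change, so the signs were fixed in advance. The median of the members ranged from −0.35 with genes at or above the median mean normalized count to −0.14 without the 36 members whose gene span overlaps another gene. That last set left 25 members, of which 8 were higher and 10 lower, so the lean to lower was smaller there. The shares were 40.0% lower and 32.0% higher, against 29.4% and 28.9% of all genes, with or without an overlap. With Bonferroni adjustment 6 members were higher and 17 lower (9.84% and 27.9%, against 15.3% and 15.5% of all genes). With p-values adjusted anew within the genes at or above the median mean normalized count, 7 of 39 were higher and 23 lower (17.9% and 59.0%, against 31.4% and 41.5% of those genes); USP28 was the call gained. A 1.5-fold minimum left 9 higher and 14 lower (14.8% and 23.0%, against 22.7% and 19.3% of all genes), so the share lower was then nearer to that of all genes. A minimum of 1 on the log2 scale left 3 and 8 (4.92% and 13.1%, against 14.7% and 8.97%), the same counts as the authors' marks. With such minimums fewer members can be called by construction. At an adjusted p under 0.01, USP21, USP33, USP38 and USP39 were no longer called; under 0.1, USP6, USP22, USP28 and USP32 were added. Centring on the median of all genes, a shift of 0.02, ended the call of USP39 and added USP28 and USP6, giving 11 higher and 28 lower. Of 190 counts of the gene lists under other thresholds, adjustments, centring and the abundance filter, 153 stayed within 1.5 times. No paired analysis was possible because the table holds a finished comparison with no values per sample, and for the same reason no replicate could be left out. Depth is unknown, so members of low mean normalized count are limited by their SE, up to 0.72 in OTUD7A.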

Other observations

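Proteases of ubiquitin-like proteins, cysteine proteases like most of the members, lay nearer to the median of all genes (0.02), a difference that was not tested. Of 14 proteases for SUMO, NEDD8, ATG8 and UFM1, 5 were lower, 2 higher and 7 not called (median −0.05), which is 35.7% lower and 14.3% higher, against 29.4% and 28.9% of all genes. UFSP2, which removes UFM1 from ribosomal protein RPL26, was lower at −1.17 ± 0.14 in the authors' deposited table (adjusted p = 3.65e-16). The autophagy protease gene ATG4B (−0.80 ± 0.12) and the SUMO protease gene SENP5 (−0.65 ± 0.13) were also lower in the authors' deposited table. SENP7, which shortens SUMO chains, was higher, by 1.85 ± 0.39 in the authors' deposited table (adjusted p = 6.63e-06), at a mean normalized count of 36.8.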
